A study of Mus musculus with 6 samples.

Results

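The 10 genes described here are Nfe2l2, which encodes the transcription factor NRF2, its inhibitor Keap1, and 8 antioxidant genes: Hmox1, Nqo1, Gclc, Gclm, Txnrd1, Srxn1, Gpx4 and Sod2. They were chosen by symbol from the 55335 gene identifiers of the count table, and all 10 were among the 15881 genes with enough counts to be tested. RNA sequencing measured them in mouse embryonic fibroblasts (MEF), adherent cells of embryonic connective tissue. Both groups were wild-type MEF grown in Dulbecco's modified Eagle medium with fetal bovine serum. Ctrl was the parental culture, and Confine was the cells that had crossed a transwell membrane with 3 μm pores within 15 h and were collected below it. Confine therefore differed from Ctrl at least by the passage, by culture on a membrane insert and by the selection of cells able to pass, which cannot be told apart. The paper's transwell protocol, given for larger pores, placed cells in serum-free medium above medium with serum. Whether the 3 μm screen did the same is not stated, so serum may be a further difference.

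NRF2 is a transcription factor that is made continuously and degraded continuously. KEAP1, an adaptor of a ubiquitin ligase, binds it in the cytoplasm and marks it for the proteasome, and oxidants or electrophiles that modify cysteines of KEAP1 let NRF2 escape, enter the nucleus and bind antioxidant response elements together with a small MAF protein. Its target genes make glutathione, regenerate thioredoxin, reduce quinones and degrade heme. Because NRF2 is controlled largely as a protein, mRNA of Nfe2l2 is not a measure of its activity.

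The table held 3 Ctrl and 3 Confine columns, but Confine replicates 1 and 2 carried the same count in all 55335 genes. They were counted as 1 sample, called the repeated Confine library here, which left 3 Ctrl libraries of 22287210 to 27853805 counts and 2 Confine libraries of 32537550 and 27290138 counts. Mitochondrial transcripts took 0.689% to 0.806% of the counts of a library. The labels do not say that the libraries came from separate cultures, so p-values measure the spread between these samples, which may be technical. Fibroblast markers summed to between 8728 and 9586 normalized CPM (counts scaled to a common library size by the TMM method) in Ctrl and between 15720 and 16500 in Confine; 7 of the 10 were tested, of which 5 rose and 0 fell. Collagens, vimentin and fibronectin were abundant, whereas Thy1 and Lum, which many fibroblasts also express, had at most 2 counts in any library. Macrophage and leukocyte markers summed to between 16.0 and 17.9 normalized CPM in Ctrl and between 36.1 and 41.4 in Confine. Of these 11 markers 4 were tested, 3 rose (Cd68, Csf1r and Cd14) and 1 fell (Lyz2), while Adgre1 and Cd3e had 0 counts throughout, and their part in the results was not tested. Endothelial markers summed to at most 1.36 normalized CPM in Ctrl and 2.70 in Confine, where Vwf, the 1 of 5 tested, rose. Epithelial markers (0 of 6 tested) and erythroid markers (1 of 6 tested, which did not pass) stayed at or under 2.23 in every library.

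Promoter sequences come first, because the element that NRF2 recognizes is a short stretch of DNA near its target genes. RefSeq windows (GRCm38.p6) running from 250 bases before to 50 bases after a start site were found for 8 of the 10 genes, in 13 windows, and the entries for Hmox1 and Gclc are missing. The core of the antioxidant response element, TGACNNNGC, was searched on both strands, together with the form TGAGNNNGC, which was added after the sequences had been seen. The forms differ in the fourth letter and cannot match the same bases of a strand. Either can overlap the AP-1 motif TGAGTCA, which reads TGACTCA on the opposite strand. The 4 genes with a match are shown by the 250 bases before the start site, read 5′ to 3′ on the strand of the gene, with each match in capitals as it reads on that strand. The Nfe2l2 stretch is chr2:75704664-75704913 (minus strand), that of Gclm is chr3:122245307-122245556, that of Txnrd1 is chr10:82858956-82859205 and that of Srxn1 is chr2:152105274-152105523 (all plus strand).
Nfe2l2: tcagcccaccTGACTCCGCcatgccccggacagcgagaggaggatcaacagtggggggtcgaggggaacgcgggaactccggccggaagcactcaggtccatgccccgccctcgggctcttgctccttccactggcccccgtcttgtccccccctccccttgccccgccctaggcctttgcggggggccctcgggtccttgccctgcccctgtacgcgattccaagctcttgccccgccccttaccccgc
Gclm: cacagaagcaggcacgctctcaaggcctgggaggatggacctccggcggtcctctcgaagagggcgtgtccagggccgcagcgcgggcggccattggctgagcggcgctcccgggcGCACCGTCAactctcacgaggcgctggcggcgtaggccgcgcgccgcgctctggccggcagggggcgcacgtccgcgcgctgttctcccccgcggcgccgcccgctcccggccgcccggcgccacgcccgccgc
Txnrd1: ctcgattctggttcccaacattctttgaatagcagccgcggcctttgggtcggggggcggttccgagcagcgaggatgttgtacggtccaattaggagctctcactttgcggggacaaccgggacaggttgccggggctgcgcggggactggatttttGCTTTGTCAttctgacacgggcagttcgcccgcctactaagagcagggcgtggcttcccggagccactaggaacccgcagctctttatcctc
Srxn1: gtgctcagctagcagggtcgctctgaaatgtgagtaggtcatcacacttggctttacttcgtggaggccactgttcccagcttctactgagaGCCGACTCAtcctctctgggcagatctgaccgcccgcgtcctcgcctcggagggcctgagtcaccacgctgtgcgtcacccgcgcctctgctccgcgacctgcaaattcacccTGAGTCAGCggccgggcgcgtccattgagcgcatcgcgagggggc

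The first base of the match TGACTCCGC of Nfe2l2 lay at position -240 from the start site, on the strand of the gene. TGACGGTGC of Gclm (position -134) and TGACAAAGC of Txnrd1 (position -92) lay on the opposite strand, so the capitals above show their reverse complements. Srxn1 carried TGAGTCGGC at position -158 on the opposite strand and TGAGTCAGC at position -45 on its own strand, and TGACCTAGC at position 29, after the start site and outside the printed stretch. TGACNNNGC was therefore present in 4 of the 13 windows (30.8%), compared with 12.4% of the 32851 windows of all genes, and TGAGNNNGC in 1 of the 13, compared with 17.6%. Either form was present in 30.8% of the 13 windows and in 27.8% of all windows, so that share of windows lay near the background. Counted by gene, TGACNNNGC was present for 4 of 8, compared with 14.0% of 27025 genes. Either form was also present for 4 of 8 genes, compared with 30.8% of the 27025, and no test of these shares was made. The Txnrd1 window shown belongs to a start site inside the annotated gene, and the other windows of Txnrd1 had no match. Neither form was found in the windows of Keap1, Nqo1, Gpx4 or Sod2, which says only that these letters are not within those bases. Among the genes with a match, Nfe2l2 rose, Gclm and Txnrd1 fell and Srxn1 did not pass the test, as described next.

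The antioxidant genes did not all move in the same direction in Confine. Hmox1, Nfe2l2 and Sod2 rose, Gclm and Txnrd1 fell, and Keap1, Srxn1, Gclc, Gpx4 and Nqo1 did not pass the test (adjusted p under 0.05 in the quasi-likelihood test of edgeR, with the Benjamini-Hochberg method applied over all tested genes). Thus 3 of the 10 rose, where 12.8% of all tested genes did, and 2 of the 10 fell, where 10.2% did. With an absolute log2 fold change above 1.5 as a further condition, 0 of the 10 were called in either direction, against 4.89% of all tested genes upward and 3.11% downward. Libraries of the 2 groups did not overlap for 6 of the 10, against 49.5% of all tested genes. The median log2 fold change of the 10 was 0.15, and that of all tested genes was -0.0021. In bulk RNA, fewer cells of a type and less RNA per cell cannot be told apart.

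**Figure D1:**
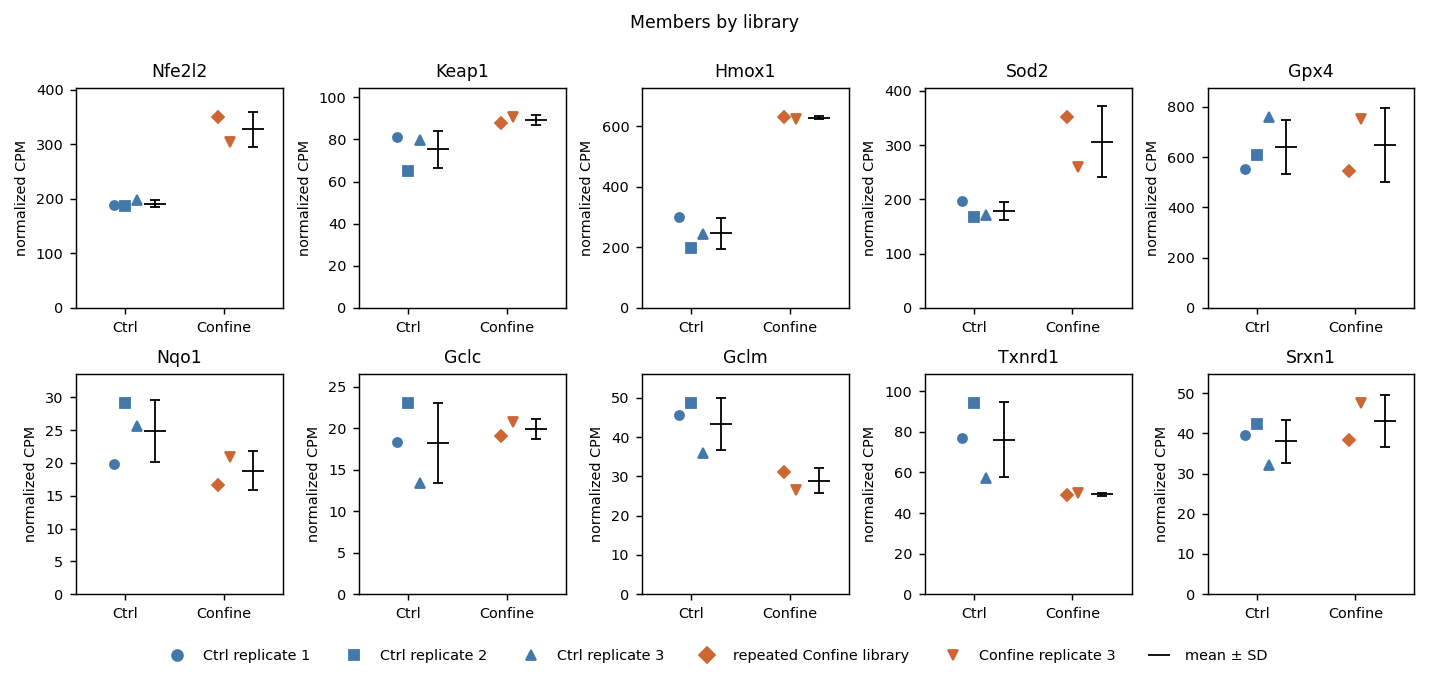
Normalized CPM (y axis, from 0) of the 10 genes in each Ctrl library (blue) and Confine library (orange), with the mean and SD of the group as a bar. The Confine libraries lie above all Ctrl libraries for Nfe2l2, Keap1, Hmox1 and Sod2, below all of them for Gclm and Txnrd1, and within or across their range for Gpx4, Nqo1, Gclc and Srxn1.

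Nfe2l2 (ENSMUSG00000015839.6, chr2:75675513-75704641, minus strand, GRCm38) was measured at 189, 186 and 198 normalized CPM in the Ctrl libraries, at 351 in the repeated Confine library and at 305 in Confine replicate 3. The Ctrl libraries lay close together and both Confine libraries stood well above them. The mean went from 191 ± 6.28 (SD, n = 3) to 328 ± 32.2 (SD, n = 2), a log2 fold change of 0.78 ± 0.17 (SE) and a fold of 1.72, with a 95% interval from 1.33 to 2.21 (adjusted p = 0.00263). Without the repeated Confine library the log2 fold change was 0.68 and the adjusted p was 0.0526, so that the call was lost.

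Keap1 (ENSMUSG00000003308.15, chr9:21229730-21239361, minus strand) encodes the adaptor that presents NRF2 for degradation. It had 80.9, 65.3 and 80.0 normalized CPM in Ctrl and 87.6 and 90.8 in Confine. Both Confine values lay above the Ctrl values, but the gap to the highest Ctrl library was smaller than the spread within Ctrl, and the log2 fold change of 0.24 ± 0.18 (SE) did not pass (adjusted p = 0.373). Its interval, from -0.14 to 0.62, includes changes in both directions. Within a library, the count of Nfe2l2 was 2.33, 2.86 and 2.48 times that of Keap1 in Ctrl. It was 4.0 and 3.36 times in the repeated Confine library and Confine replicate 3, without overlap of the groups. This ratio needs no scaling between libraries. However, it and the ratios below reuse the counts of genes already tested, so they are not separate support. Such a ratio of 3 against 2 libraries cannot reach an exact permutation p below 0.1, and no test of it was made.

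The annotation places Gm16754, an antisense RNA gene, opposite Keap1 with 510 shared exon bases. Chosen after its values were seen, Gm16754 had 40, 48 and 53 counts in Ctrl and 278 and 217 in Confine, and rose by a log2 fold change of 2.31 (adjusted p = 6.30e-06). The library kit kept the strand, but the strand setting of the counting is not given in the sources used here. If counting ignored strand, reads of this pair cannot be told apart where they overlap. Keap1 had 9.33 times the counts of Gm16754 in the repeated Confine library and 10.5 times in Confine replicate 3, and between 35.5 and 58.6 times in Ctrl.

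Hmox1 (ENSMUSG00000005413.8, chr8:75093621-75100589, plus strand) encodes heme oxygenase 1, the inducible enzyme that opens heme into biliverdin, iron and carbon monoxide. Its values were 299, 197 and 243 normalized CPM in Ctrl and 631 and 625 in Confine. Every Confine library lay more than 2 times above the highest Ctrl library, and the Confine values were nearly the same while the Ctrl values spread widely. Hmox1 rose from 247 ± 51.1 (SD, n = 3) to 628 ± 4.67 (SD, n = 2), a fold of 2.55 with a 95% interval from 1.93 to 3.37 and a log2 fold change of 1.35 ± 0.19 (SE), the largest among the 10 genes (adjusted p = 3.98e-05). Of all tested genes, 88.9% had a smaller absolute log2 fold change. Hmox1 kept its call in all 14 alternative fits, with log2 fold changes from 1.14 to 1.52.

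Hmox2, the constitutive heme oxygenase, had a log2 fold change of 0.09 that did not pass (adjusted p = 0.797). The count of Hmox1 was 3.69, 3.36 and 2.87 times that of Hmox2 in the Ctrl libraries and 8.04 and 7.77 times in the Confine libraries, with no overlap. Hmox2 shares 767 identical exon bases with its neighbour Cdip1, so its own count is uncertain. In the list of heme breakdown and iron genes, 1 of the 8 tested rose and 0 fell, with a median log2 fold change of -0.13. The gene that rose was Blvrb, a biliverdin reductase, from a mean of 94.8 to 165 normalized CPM (log2 fold change 0.80, adjusted p = 0.00465). Its log2 fold change was 0.51 without Confine replicate 3, and the call was lost (adjusted p = 0.202). Blvra, the other biliverdin reductase of the list, was lower in Confine, at a mean of 51.7 normalized CPM against 66.0 in Ctrl. Its log2 fold change of -0.35 did not pass (adjusted p = 0.169). The ferritin subunits Fth1 and Ftl1, which store iron, did not pass, at log2 fold changes of 0.06 and 0.40, and Ftl1 shares near-identical sequence with expressed pseudogenes.

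Nqo1 (ENSMUSG00000003849.8, chr8:107388225-107403206, minus strand) encodes the quinone reductase that is often read as a reporter of NRF2. It was measured at 19.9, 29.1 and 25.6 normalized CPM in Ctrl and at 16.7 and 20.9 in Confine. The ranges overlapped, because Ctrl replicate 1 lay below Confine replicate 3, and the log2 fold change of -0.40 ± 0.21 (SE) did not pass (adjusted p = 0.185). Scaling by library size alone instead of TMM moved the median log2 fold change of all genes by -0.21. Under that scaling Nqo1 had a log2 fold change of -0.62 and passed (adjusted p = 0.0426).

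Gclc and Gclm encode the catalytic and the modifier subunit of glutamate-cysteine ligase, the rate-limiting enzyme of glutathione synthesis. Gclm passed the test and Gclc did not, but the difference between their changes was not tested. The 95% interval of the fold of Gclc, from 0.7876 to 1.503, overlapped that of Gclm. Gclc (ENSMUSG00000032350.9, chr9:77754535-77794485, plus strand) had 18.4, 23.1 and 13.4 normalized CPM in Ctrl and 19.1 and 20.7 in Confine. The Confine values fell inside the Ctrl range, and the log2 fold change of 0.12 ± 0.22 (SE) did not pass (adjusted p = 0.750) and turned to -0.09 with library size alone and to -0.08 without Ctrl replicate 3. Gclm (ENSMUSG00000028124.15, chr3:122245557-122270732, plus strand) had 45.6, 48.7 and 35.9 normalized CPM in Ctrl and 31.2 and 26.6 in Confine. Both Confine libraries lay below every Ctrl library. Gclm fell from 43.4 ± 6.66 (SD, n = 3) to 28.9 ± 3.24 (SD, n = 2), a fold of 0.666 with a 95% interval from 0.501 to 0.887 and a log2 fold change of -0.59 ± 0.20 (SE) (adjusted p = 0.0380).

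The call of Gclm was close to the threshold. It was lost without Ctrl replicate 1 (adjusted p = 0.114), without the repeated Confine library (adjusted p = 0.117) and without Confine replicate 3 (adjusted p = 0.320), although the log2 fold change stayed between -0.72 and -0.48 when any 1 library was left out. Within a library, the count of Gclm was 2.48, 2.11 and 2.69 times that of Gclc in Ctrl and 1.64 and 1.29 times in Confine. This ratio of mRNA counts was lower in both Confine libraries than in every Ctrl library. No test of it was made, and the protein subunits were not measured. Annotated exons of Gclm include 287 bases that are 97.9% identical to Ppia, an abundant gene with a mean of 65601 counts, and reads from that stretch could be assigned to either.

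Txnrd1 and Srxn1 serve the thiol enzymes that detoxify peroxides. Txnrd1 (ENSMUSG00000020250.10, chr10:82833951-82897712, plus strand), the cytosolic thioredoxin reductase, was measured at 77.1, 94.3 and 57.1 normalized CPM in Ctrl and at 48.8 and 49.7 in Confine. The Ctrl libraries were widely spread, and the Confine libraries were nearly equal and lay below the lowest of them. Txnrd1 fell from 76.2 ± 18.6 (SD, n = 3) to 49.2 ± 0.678 (SD, n = 2), a fold of 0.646 with a 95% interval from 0.476 to 0.878 and a log2 fold change of -0.63 ± 0.21 (SE) (adjusted p = 0.0375). This call was lost without Ctrl replicate 1, Ctrl replicate 2, the repeated Confine library or Confine replicate 3, at adjusted p = 0.0767, 0.0661, 0.204 and 0.198 in that order, with log2 fold changes of -0.63, -0.45, -0.61 and -0.65.

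Txn1, the thioredoxin that Txnrd1 reduces, was the denominator of a further ratio. The count of Txnrd1 was 0.278, 0.255 and 0.193 times that of Txn1 in Ctrl and 0.149 and 0.155 times in Confine, with no overlap. Srxn1 (ENSMUSG00000032802.8, chr2:152105516-152111376, plus strand) encodes sulfiredoxin, which restores over-oxidized peroxiredoxins. It had 39.5, 42.4 and 32.1 normalized CPM in Ctrl and 38.4 and 47.5 in Confine. The repeated Confine library lay inside the Ctrl range and Confine replicate 3 above it, and the log2 fold change of 0.18 ± 0.19 (SE) did not pass (adjusted p = 0.564) and was -0.03 with library size alone.

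Gpx4 and Sod2 act directly on oxidants. Gpx4 (ENSMUSG00000075706.10, chr10:80047166-80056439, plus strand), the selenoenzyme that reduces lipid hydroperoxides and protects from ferroptosis, was measured at 553, 610 and 761 normalized CPM in Ctrl and at 544 and 751 in Confine. The groups spanned nearly the same range. The log2 fold change was 0.01 ± 0.20 (SE) with an interval from -0.40 to 0.43 (adjusted p = 0.972), and its sign turned in 7 of the 14 alternative fits, library size alone among them. A transcribed pseudogene, Gpx4-ps2, aligns to 762 bases of Gpx4 at 99.7% identity and had 2642 counts on average. Gpx4 had between 6.21 and 6.85 times the counts of Gpx4-ps2 in every library of both groups, with overlapping groups, and the level of Gpx4 is uncertain by the reads this copy may take or give.

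Sod2 (ENSMUSG00000006818.5, chr17:13006846-13040063, plus strand) encodes the manganese superoxide dismutase of mitochondria, which is also induced by NF-kB. It had 198, 167 and 171 normalized CPM in Ctrl, 353 in the repeated Confine library and 260 in Confine replicate 3. Both Confine libraries lay above all Ctrl libraries but differed from each other by more than the Ctrl libraries did. Sod2 rose from 179 ± 16.5 (SD, n = 3) to 306 ± 65.2 (SD, n = 2), a fold of 1.71 with a 95% interval from 1.31 to 2.25 and a log2 fold change of 0.78 ± 0.19 (SE) (adjusted p = 0.00472). Without the repeated Confine library the log2 fold change was 0.54 and the call was lost (adjusted p = 0.138).

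Sod1, the cytosolic copper-zinc enzyme, had a log2 fold change of 0.01 that did not pass (adjusted p = 0.981), and a pseudogene with 3539 counts on average is 97.8% identical to 465 of its bases. The count of Sod2 was 0.0230, 0.0157 and 0.0178 times that of Sod1 in Ctrl and 0.0432 and 0.0232 times in Confine, and the ratio of Confine replicate 3 was barely above that of Ctrl replicate 1. A stretch of 3110 annotated bases of Sod2 is 98.3% identical to Rps6ka2. Rps6ka2 had 89 to 208 counts per library, beside 4030 to 10435 of Sod2, and fell (log2 fold change -0.97, adjusted p = 0.0110). How multiply mapped reads were counted is not known, so the reads of this stretch are uncertain and these counts do not bound them.

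**Figure D2:**
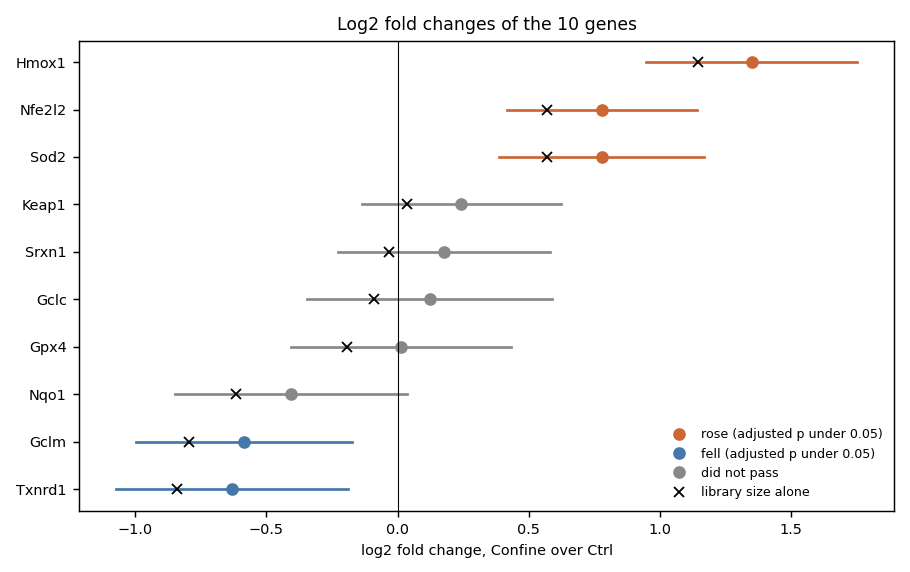
Log2 fold change of Confine over Ctrl (x axis) for the 10 genes, with 95% intervals as lines, and the value scaled by library size alone as a cross. Hmox1, Nfe2l2 and Sod2 lie above 0, Gclm and Txnrd1 below it, and the crosses lie about 0.21 to the left of the circles throughout.

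**Figure D3:**
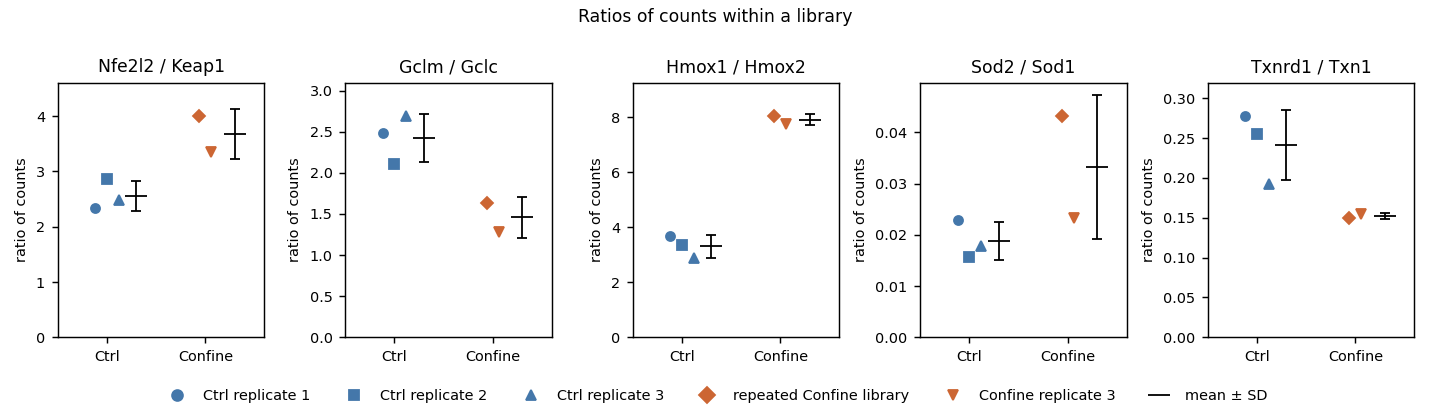
Ratio of the counts of 2 genes within each library (y axis, from 0) for 5 pairs, with the mean and SD of the group as a bar. Confine lies above Ctrl for Nfe2l2 over Keap1, Hmox1 over Hmox2 and Sod2 over Sod1, and below it for Gclm over Gclc and Txnrd1 over Txn1.

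To compare genes, levels were divided by the merged length of all annotated exons of a gene. This length may exceed that of the transcript expressed, so the order of genes is uncertain. Per kilobase so defined, Gpx4 was the most abundant of the 10 in Ctrl, at 321 to 441 normalized CPM per kb. Hmox1 followed at 113 to 171 and Nfe2l2 at 49.1 to 52.2, each apart from its neighbours. Sod2 (16.7 to 19.8), Keap1 (13.9 to 17.2), Nqo1 (12.8 to 18.8), Srxn1 (11.4 to 15.0) and Txnrd1 (8.05 to 13.3) each overlapped the next, and Gclm (5.71 to 7.74) overlapped Gclc (3.55 to 6.12). In Confine, Hmox1 reached 357 and 361 normalized CPM per kb and lay within the range of Gpx4, 315 and 435. Nfe2l2 (80.4 and 92.4) and Sod2 (26.0 and 35.2) stood apart from their neighbours there. Gclc (5.06 and 5.50) lay just above Gclm (4.23 and 4.96), the reverse of their order in the Ctrl means, 4.85 for Gclc and 6.90 for Gclm. Averaged over the 5 libraries, 99% of all tested genes had a lower level per kb than Gpx4 and 61.5% a lower level than Gclc.

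The genes around these 10 were described in 9 lists of 144 further genes, of which 123 were tested: 16 rose, 12 fell and the median log2 fold change was 0.04. These counts lie near the share of all tested genes, of which 12.8% rose and 10.2% fell. With the cutoff of 1.5 on the log2 fold change, 5 were called upward and 2 downward, no larger a share than the 4.89% and 3.11% of all tested genes. Of the 28 called genes, 21 kept their call without Ctrl replicate 1, 27 without Ctrl replicate 2 and 24 without Ctrl replicate 3. Fewer kept it when a Confine library was left out. Over all tested genes, 2035 rose and 1619 fell in the main fit, and 1564 and 1186 did so without Ctrl replicate 1. Without Ctrl replicate 2 these numbers were 2411 and 2015, and without Ctrl replicate 3 they were 1836 and 1624. The share of all called genes that kept their call was not computed, so the losses were not shown to be particular to these lists. The list genes that kept their call whichever library was left out were Maff, Bach2, Glrx, Prdx5, Sesn3, Akr1b8, Ephx1, Abcc1, Selenop and Xdh.

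**Figure D4:**
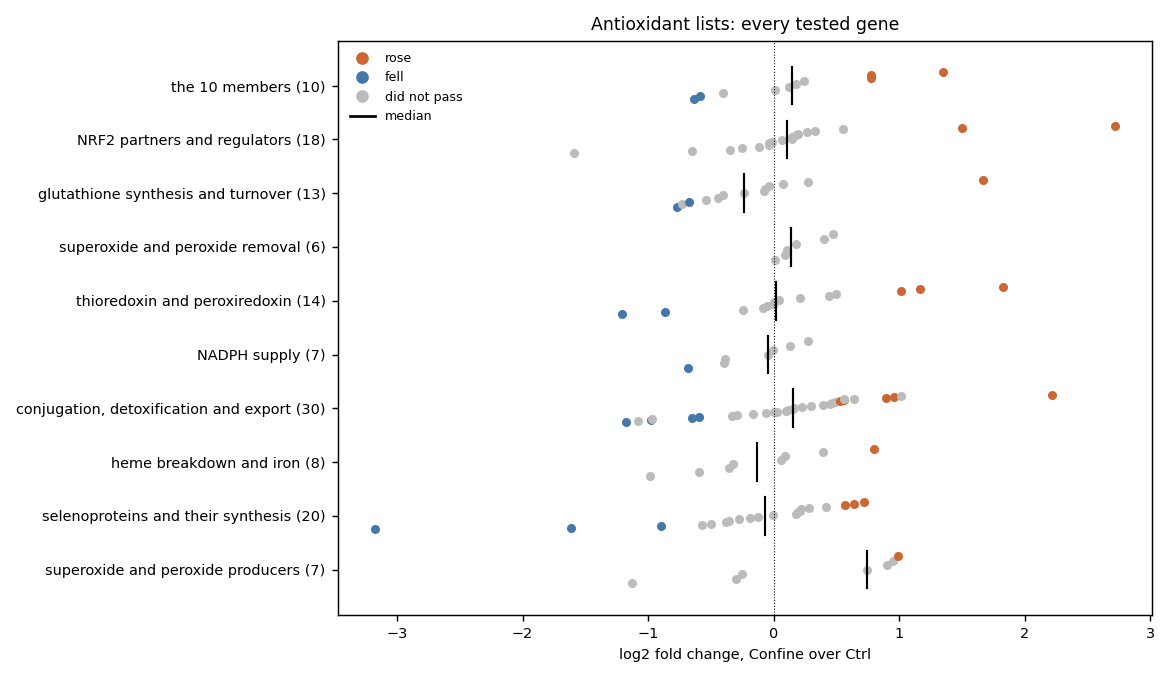
Log2 fold change of Confine over Ctrl (x axis) for every tested gene of the 10 genes and of the 9 lists (rows, number tested in parentheses), with orange for genes that rose, blue for genes that fell, grey for the rest and a black bar at the median. The list medians lie between -0.24 and 0.16, except that of the superoxide and peroxide producers at 0.74.

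Among the partners and regulators of NRF2, 18 were tested, 2 rose and 0 fell, with a median log2 fold change of 0.11. Maff, a small MAF protein that can pair with NRF2 on DNA, had 2.97, 4.20 and 2.21 normalized CPM in Ctrl and 18.1 and 23.3 in Confine. The Confine libraries were several times above every Ctrl library, a fold of 6.60 with a 95% interval from 4.53 to 9.60 and a log2 fold change of 2.72 ± 0.26 (SE) (adjusted p = 3.99e-07). Bach2, a repressor that competes for related elements, had 2.11, 3.44 and 1.91 normalized CPM in Ctrl and 7.97 and 6.11 in Confine. The groups again did not overlap, and Bach2 rose by a log2 fold change of 1.5001 (adjusted p = 0.00104). It was thus barely past the cutoff of 1.5, and its value with DESeq2 was 1.4907.

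Relatives of these genes did not pass. Mafg, another small MAF protein, had a log2 fold change of 0.56 just outside the threshold (adjusted p = 0.0533), and it passed with limma-voom (adjusted p = 0.0492), with no filter on low counts (adjusted p = 0.0346) and with the identical columns counted as 2 samples (adjusted p = 0.0227). Mafk, at a mean of 7.29 normalized CPM in Ctrl and 4.67 in Confine, had a log2 fold change of -0.65 (adjusted p = 0.0813). Bach1, a repressor of Hmox1, had a log2 fold change of 0.15 (adjusted p = 0.620), which was -0.06 with library size alone. Cul3 and Rbx1, which complete the ubiquitin ligase of KEAP1, had log2 fold changes of -0.01 and -0.12, and Sqstm1, the autophagy receptor that binds KEAP1, of -0.03, and none of these 3 passed (adjusted p = 0.976, 0.693 and 0.935).

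In glutathione synthesis and turnover, 13 genes were tested, 1 rose and 2 fell, with a median log2 fold change of -0.24. Glrx, a glutaredoxin that removes glutathione from protein thiols, had 86.2, 67.8 and 84.5 normalized CPM in Ctrl and 276 and 230 in Confine, far apart, and rose by a log2 fold change of 1.67 (adjusted p = 2.33e-06). Slc3a2, the heavy chain of the cystine importer and of other amino acid transporters, fell from a mean of 322 to 202 normalized CPM (log2 fold change -0.68, adjusted p = 0.00956). Chac1, which degrades glutathione, fell from 70.0 to 41.2 (log2 fold change -0.77, adjusted p = 0.0108). Slc7a11, the light chain of the cystine importer and a known NRF2 target, had a log2 fold change of -0.44 that did not pass (adjusted p = 0.277), and it shares 373 bases with abundant tubulin genes. Slc3a2 lost its call without either Confine library (adjusted p = 0.0599 without the repeated one and 0.0977 without Confine replicate 3), and Chac1 without Ctrl replicate 1, the repeated Confine library or Confine replicate 3 (adjusted p = 0.0580, 0.109 and 0.107).

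Of the 14 genes of the thioredoxin and peroxiredoxin list, all tested, 3 rose and 2 fell, and the median log2 fold change was 0.02. Prdx5, a peroxiredoxin of mitochondria, peroxisomes and cytosol, had 366, 361 and 370 normalized CPM in Ctrl and 1184 and 1405 in Confine. The Ctrl libraries were almost equal and the Confine libraries lay more than 3 times above them, a log2 fold change of 1.83 ± 0.17 (SE) (adjusted p = 4.35e-07). Prdx5 overlaps its neighbour Trmt112 over 360 exon bases. Txnrd3, a thioredoxin and glutathione reductase, rose by a log2 fold change of 1.16 (adjusted p = 0.00594), and so did Txnip, an inhibitor of thioredoxin, by 1.02 (adjusted p = 0.00583), although Txnip overlaps the antisense gene Gm15441 over 443 bases. Sesn3 and Sesn1, members of the sestrin family, fell by 1.2 and 0.87 on the log2 scale (adjusted p = 0.00140 and 0.0163). Without Confine replicate 3, Txnrd3 (log2 fold change 0.70, adjusted p = 0.239), Txnip (0.143) and Sesn1 (0.0635) lost their calls, and Sesn1 also without the repeated Confine library (0.176).

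Conjugation, detoxification and export held 30 tested genes, of which 5 rose and 4 fell, with a median log2 fold change of 0.16. Akr1b8, an aldo-keto reductase that reduces reactive aldehydes, had 33.6, 33.8 and 28.9 normalized CPM in Ctrl and 147 and 153 in Confine. Both groups were tight and far apart, a fold of 4.66 with a 95% interval from 3.60 to 6.04 and a log2 fold change of 2.22 ± 0.18 (SE) (adjusted p = 5.01e-08). Abcc1, an exporter of glutathione conjugates, and Ephx1, an epoxide hydrolase, rose by log2 fold changes of 0.96 and 0.90 (adjusted p = 5.12e-04 and 0.00108). Osgin1, an oxidative stress response gene, fell from a mean of 7.28 to 3.24 normalized CPM (log2 fold change -1.17, adjusted p = 0.00726), and it lost the call without the repeated Confine library (adjusted p = 0.143).

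Of the glutathione transferases, which attach glutathione to electrophiles, 12 genes named Gst were tested, of which 2 rose, 3 fell and 7 did not pass. Gsto1 and Gstp1 rose by log2 fold changes of 0.56 and 0.53 (adjusted p = 0.0393 and 0.0292), and Gstp1 shares near-identical sequence with a pseudogene that was also counted. Gstt1, Gstm2 and Gsta4 fell by 0.97, 0.65 and 0.60 on the log2 scale (adjusted p = 0.0103, 0.0154 and 0.0499). Each of these 5 lost its call without the repeated Confine library (adjusted p = 0.479, 0.119, 0.176, 0.185 and 0.438 in the order named), and there the log2 fold change of Gsto1 was 0.28 and that of Gsta4 was -0.37. Gstt1 had a log2 fold change of -0.64 without Ctrl replicate 3 and still passed (adjusted p = 0.0374). Gstp1, Gstm2 and Gsta4 lost it also without Confine replicate 3 (adjusted p = 0.108, 0.0840 and 0.0667), Gsto1 and Gstp1 without Ctrl replicate 1 (0.137 and 0.104), and Gsto1, Gstp1 and Gsta4 without Ctrl replicate 3 (0.0612, 0.0979 and 0.138). With library size alone, Gsto1 and Gstp1 did not pass (adjusted p = 0.183 and 0.172), and with at least 10 counts required in every library Gsta4 did not (0.0507).

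Enzymes that supply NADPH, the electron source of glutathione and thioredoxin reductases, gave 7 tested genes, of which 0 rose and 1 fell, with a median log2 fold change of -0.04. Idh1, the cytosolic isocitrate dehydrogenase, had 151, 202 and 203 normalized CPM in Ctrl and 124 and 107 in Confine. The Confine libraries lay below all Ctrl libraries, a log2 fold change of -0.68 ± 0.19 (SE) (adjusted p = 0.0147), and the call was lost without the repeated Confine library (adjusted p = 0.0606) or Confine replicate 3 (0.181). G6pdx and Pgd of the pentose phosphate pathway had log2 fold changes of -0.0013 and -0.04 (adjusted p = 0.998 and 0.895).

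Besides Gpx4 and Sod2, superoxide and peroxide removal had 6 tested genes of 11, and 0 passed, with a median log2 fold change of 0.14 and values between 0.01 for Sod1 and 0.47 for Gpx8. Catalase (Cat) had a log2 fold change of 0.40 (adjusted p = 0.118) and Gpx1, the cytosolic glutathione peroxidase, of 0.18 (adjusted p = 0.539). Among the sources of these oxidants, 7 of 13 genes were tested, 1 rose and 0 fell. That gene was Xdh, the xanthine oxidoreductase of purine breakdown, with 35.4, 50.2 and 41.4 normalized CPM in Ctrl and 82.4 and 85.8 in Confine, without overlap (log2 fold change 0.99, adjusted p = 7.26e-04). A stretch of 386 bases of Xdh is 97.7% identical to the abundant Fstl1, and reads from it are uncertain. The other 6 tested producers, among them Nox4 and Duox1, had means of at most 1.2 normalized CPM in either group, so their list median of 0.74 rests on low counts.

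Gpx4 and Txnrd1 are selenoproteins, and 20 further genes for selenoproteins or their synthesis were tested, of which 3 rose and 3 fell, with a median log2 fold change of -0.07. Selenop, the secreted selenium carrier, had 30.9, 21.7 and 37.0 normalized CPM in Ctrl and 11.6 and 7.86 in Confine, all Confine values being below all Ctrl values (log2 fold change -1.61, adjusted p = 9.68e-05). Selenop shares 439 exon bases with Ccdc152, which had 16.8 counts on average. Sephs2, which makes the selenium donor for selenocysteine, fell by 0.89 on the log2 scale (adjusted p = 0.0133). Dio3, a deiodinase of thyroid hormone, was near the detection limit, with 21, 16 and 6 counts in Ctrl and 1 and 2 in Confine (adjusted p = 0.0143), and the ratio of summed counts per total count, Confine over Ctrl, was 0.0870 with an exact 95% counting interval from 0.0173 to 0.272. Selenok, Selenom and Selenow, small selenoproteins that include 2 of the endoplasmic reticulum, rose by log2 fold changes of 0.72, 0.64 and 0.57 (adjusted p = 0.00708, 0.0197 and 0.0438). Selenop kept its call whichever library was left out, whereas Sephs2 and Dio3 lost it without either Confine library (adjusted p = 0.0600 and 0.166 without the repeated one, 0.194 and 0.0831 without Confine replicate 3). Sephs2 had a log2 fold change of -0.55 without Ctrl replicate 2 and kept its call there (adjusted p = 0.0254). Without Ctrl replicate 1 Selenok, Selenom and Selenow lost it (0.05004, 0.1002 and 0.159), Selenok also without the repeated Confine library (0.115), Selenom and Selenow without Confine replicate 3 (0.333 and 0.590, at log2 fold changes of only 0.41 and 0.25) and Selenow without Ctrl replicate 3 (0.0539). Selenom and Selenow also missed the threshold with library size alone (0.104 and 0.192), and Selenow kept its call in 7 of 14 alternative fits.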

How the data were processed

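Polyadenylated RNA of 3 Ctrl and 3 Confine samples was sequenced with a dUTP strand protocol, and the authors deposited raw counts of reads per gene in 6 columns. The submitters' processing notes name Trim Galore 0.6.10, HISAT2 2.1.0, SAMtools 1.5, featureCounts and the build mm10. The annotation and the settings for strand and multiply mapped reads are not given in the sources used here. Groups were taken from the sample titles.

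Gene identifiers were matched without their version to GENCODE M21 (GRCm38), in which 55154 of 55335 were found. The filter filterByExpr kept 15881 genes. Scaling by TMM and a quasi-likelihood test followed in edgeR 4.0.16 (R 4.3.3), with group as the sole term and p-values adjusted by Benjamini-Hochberg over these genes. Residual degrees of freedom were 3, with a median prior of 14.8. Genes with an adjusted p under 0.05 were called, and a log2 fold change cutoff of 1.5 was the second rule. Total counts of 22287210 to 32537550 put a floor of 3 counts at 0.101 to 0.128 normalized CPM. Floors and counting intervals cover the error of counting alone, because PCR copies cannot be told from separate molecules. Copies were searched with blastn 2.17.0 at 95% identity or more.

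The 10 genes and all lists were chosen with earlier results of these data known. Named genes were the 10 and, from each list, the 3 called genes with the largest absolute log2 fold change. Bach1, Mafg, Mafk, Slc7a11 and other members without a call were named for their role, and Gm16754, Txnip, Sesn1, Abcc1, Ephx1, Gsto1, Gstp1, Gstm2, Gsta4, Selenok, Selenom and Selenow after their values were seen. On counts simulated for 15881 genes, 82 were changed by 0.5, 59 by 1 and 59 by 2 on the log2 scale. The test recovered 6.1%, 40.7% and 83.1% of these in that order, with 4.88% false among its calls. In the data 2035 genes rose and 1619 fell, so far fewer genes were changed in the simulation than were called. The adjusted threshold is stricter when fewer genes change, so these rates are not the power of the main fit. The alternatives were DESeq2 1.42.0, limma-voom (limma 3.58.1), other scalings and filters, the identical columns counted as 2 samples, the replicate block, the second rule and leaving out each library.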

Additional observations from a re-analysis of the deposited data

How the results depend on the processing

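At 3 against 2 libraries, changes of small size are often missed, so a gene that did not pass may still differ, and fits without a Confine library assume that the lone Confine sample varies like the Ctrl samples. Of the 10 genes, 3 rose and 2 fell; when each library was left out in turn, 1 to 3 rose and 0 to 2 fell, the lowest count upward being without the repeated Confine library. The 9 lists together had 10 to 20 genes that rose and 4 to 13 that fell in these fits, and all tested genes 1196 to 2411 and 850 to 2015. None of the 10 fell without Ctrl replicate 1, the repeated Confine library or Confine replicate 3, and 1 fell without Ctrl replicate 2. Without the repeated library 4 list genes and 850 of all genes fell, and without Confine replicate 3 these counts were 4 and 858, while 10 and 1196 rose. With the cutoff of 1.5, 0 of the 10 rose and 0 fell, 5 and 2 of the lists, and 777 and 494 of all genes. Library size alone gave 24 list genes and 2805 of all genes that fell, and treating the identical columns as 2 samples gave 20 and 2456.

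The replicate block, with the repeated library as number 2, left 3 of the 10 genes that rose and 0 that fell (Gclm adjusted p = 0.185, Txnrd1 adjusted p = 0.145), and with it as number 1 the counts were 3 and 2. The labels tie nothing to a replicate number, and deviations of same-numbered libraries had a correlation across genes of -0.05 and 0.05, so the numbers were taken as names only. Signs turned for values that never passed. With library size alone, the log2 fold changes were -0.0894 for Gclc, -0.0317 for Srxn1, -0.0609 for Bach1 and -0.194 for Gpx4. Gclc lay between -0.0761 (without Ctrl replicate 3) and 0.319 when a library was left out, and Gpx4 between -0.239 and 0.230. Gpx4 was -0.0769 when the repeated column entered as 2 samples, and -0.0919 and -0.0220 under the replicate block with the repeated library as number 2 and as number 1. The cause of these changes was not tested. DESeq2, limma-voom, RLE size factors and both other filters on low counts kept the calls of the 5 genes named as risen or fallen.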
